A study of Mus musculus with 2 samples.

Results

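Mir143 and Mir145a are a pair of neighbouring microRNA (miRNA) genes known for their expression in smooth muscle, which forms, among others, the contractile layer of vessel walls. They were chosen by name, and their rows in the count tables were found through the Ensembl identifiers ENSMUSG00000065445 and ENSMUSG00000065592. They are 2 of the 1973 miRNA genes measured by small RNA sequencing of the embryonic mouse heart. The series holds 1 group of 2 libraries, both of whole heart of the strain B6NCrl at embryonic day 14.5, with no genetic change or treatment named in the labels and no control group. Replicate 1 was collected on day 15 and replicate 2 on day 17 of July 2014. Each is described as 1 heart, yet the sex entry names a pool of both sexes, and both carry the same donor entry. Separate litters are not stated, but the same embryonic day on 2 collection days implies them. Biological and technical parts of the spread between the libraries cannot be told apart. The libraries held 8150499 and 7269505 reads, and miRNA genes received 4327424 and 3839984 of them. With 1 group the tables give the level of each miRNA in the organ, and no difference between conditions can be tested.

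Both genes lie on the minus strand of mouse chromosome 18 (build mm10). The hairpin of Mir143 spans 61649196 to 61649258, which is 63 bases, and that of Mir145a spans 61647825 to 61647894, which is 70 bases. Transcription passes Mir143 first, and 1301 bases separate the hairpins. GENCODE M21 and RefSeq place both hairpins at the same positions but differ on their host. In GENCODE M21 the long noncoding RNA gene Carmn, known from cardiac and smooth muscle differentiation (61649625 to 61665537, minus strand) ends 366 bases before Mir143, so both miRNAs lie outside every other annotated gene. The RefSeq entry for Carmn reaches from 61645878 to 61665538 and contains both. Bvht (Braveheart), a long noncoding RNA gene known from commitment to the cardiovascular lineage, lies on the plus strand and stops 352 bases short of Mir145a in GENCODE M21. The nearest protein-coding genes were Il17b, 35628 bases from Mir143, and Csnk1a1, 57763 bases from Mir145a. Carmn and Bvht are far longer than the RNAs selected here, so their own levels were not measured.

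**Figure D1:**
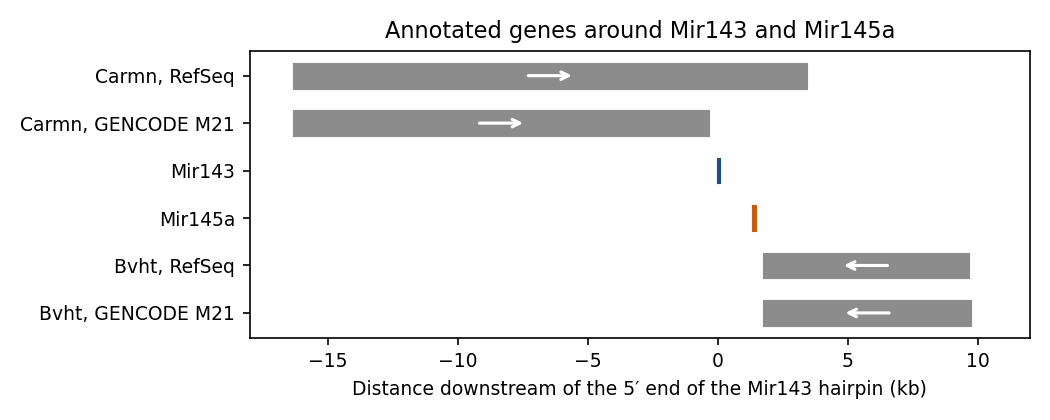
Map of the annotated genes around the pair. The horizontal axis is the distance in kb downstream of the 5′ end of the Mir143 hairpin, in the direction in which Mir143 is transcribed, and arrows show the direction of each long gene. Mir143 and Mir145a lie inside Carmn as RefSeq draws it and 366 bases or more beyond its end as GENCODE M21 draws it, with Bvht running towards them from the other side.

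A miRNA gene is transcribed as a long primary RNA, from which the enzymes Drosha and Dicer cut a hairpin and then a short mature strand that guides repression of messenger RNAs. miR-143 and miR-145 are cut from a shared primary transcript whose promoter responds to serum response factor and its cofactor myocardin. In the mouse embryo the pair is active in heart progenitors and in the myocardium early on, and later becomes largely a property of smooth muscle. Known targets include Klf4 and Klf5 for miR-145 and Elk1 for miR-143, all of which encode transcription factors that hold smooth muscle in its proliferating rather than its contractile state.

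Mir143 was among the most abundant miRNAs of the heart libraries. Mir145a was far less abundant, ranking 71 by mean level among the 337 genes with at least 10 counts in each library. Mir143 had 273804 counts in replicate 1 and 328873 in replicate 2, although replicate 2 was the shallower library. Per 1000000 reads assigned to miRNA genes in each library (CPM), its level was 63272 CPM (95% Poisson interval 63035 to 63509) and 85644 CPM (85352 to 85938). The mean was 74458 ± 15820 CPM (SD, n = 2). Mir143 thus ranked 5 in replicate 1, 2 in replicate 2 and 2 by its mean, and the 2 levels were further apart than counting error allows. It held 6.33% of the assigned reads in replicate 1 and 8.56% in replicate 2. In whole tissue, fewer cells of a type and less RNA per cell cannot be told apart, and no read was assigned to a cell. A read in such a library spans a whole mature miRNA, so levels of different genes were compared without dividing by length. Reads were not calibrated to molecules for each miRNA. Ranks and ratios between genes therefore describe reads and need not equal those of molecules.

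The genes closest to Mir143 in level were Mir335 above it and Mir126a, Mir322, Mir208b, Mir99a and Mirlet7g below. Mir335, hosted by the imprinted gene Mest, lay above Mir143 in both libraries, at 125048 and 114248 CPM. The order among the next 3 was not fixed. Mir126a, hosted by the endothelial gene Egfl7, stood at 69932 and 75015 CPM. Mir322, a miRNA of the X chromosome linked to cell cycle control, stood at 66947 and 72001, and Mir208b, hosted by the cardiac myosin gene Myh7, at 66314 and 66822. Mir143 lay below all 3 in replicate 1 and above all 3 in replicate 2, so its level did not differ from theirs beyond the spread between libraries. Mir99a (56147 and 59214 CPM) and Mirlet7g (43488 and 39444 CPM) lay below Mir143 in both. The mature RNAs of Mir335, next above Mir143 in mean level, and of Mir126a, Mir322 and Mir208b, the 3 genes next below, are printed here from RefSeq (build GRCm38.p6), 5′ to 3′, to show which small RNAs Mir143 ranked among. For Mir126a only the 3p strand is printed. The seed, bases 2 to 8, by which a miRNA recognises its targets, is in capitals, and all 7 printed seeds differ.
miR-335-5p: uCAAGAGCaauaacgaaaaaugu
miR-335-3p: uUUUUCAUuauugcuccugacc
miR-126a-3p: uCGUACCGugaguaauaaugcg
miR-322-5p: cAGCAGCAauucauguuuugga
miR-322-3p: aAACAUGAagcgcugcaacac
miR-208b-3p: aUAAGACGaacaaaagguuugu
miR-208b-5p: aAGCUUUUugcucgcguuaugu
The tables hold 1 count per gene, so reads of the 5p and 3p strands of a hairpin were not told apart for these genes or for the pair.

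Mir145a had 5289 counts in replicate 1 and 5583 in replicate 2. Its level was 1222 CPM (1189 to 1256) and 1454 CPM (1416 to 1493), with a mean of 1338 ± 164 CPM (SD, n = 2). It ranked 75 in replicate 1, 70 in replicate 2 and 71 by its mean. The 10 genes next to it in mean level are close to it by selection. Of these 10, 8 had ranges over the libraries that overlapped that of Mir145a. Mir148a, next above, stood at 1435 and 1437 CPM, and Mir28a, next below, at 1235 and 1367 CPM. Only Mir484 (1688 and 1663 CPM) and Mir15b (1460 and 1722 CPM) lay clear of it, both above.

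**Figure D2:**
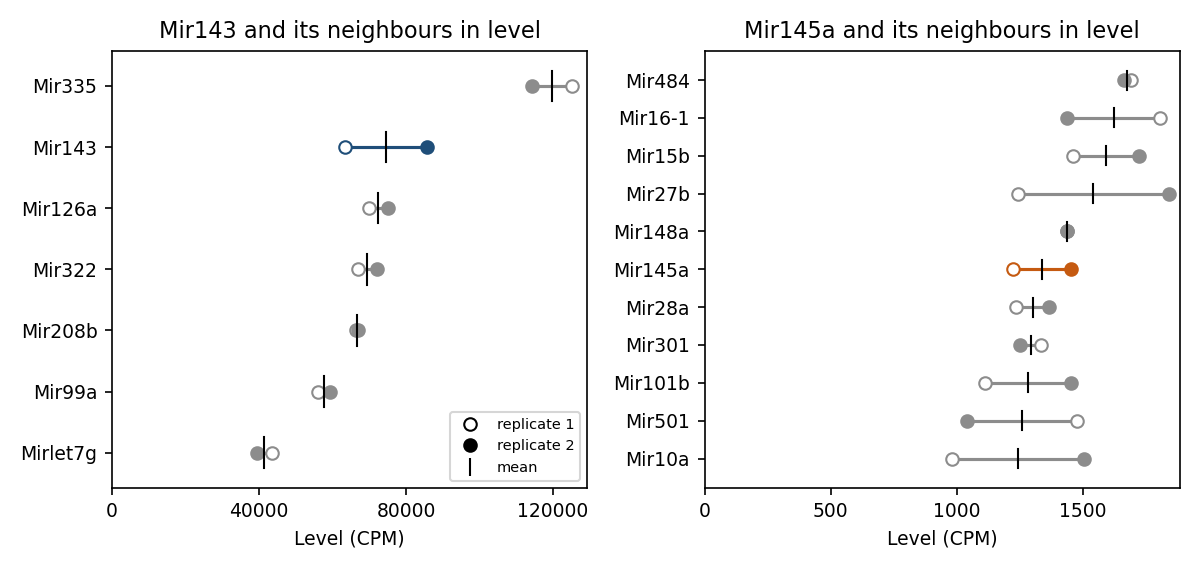
Levels of Mir143 (left) and Mir145a (right), both in CPM, beside the genes next to each in mean level, with 1 line per gene. Open circles are replicate 1, filled circles replicate 2 and vertical ticks the mean; the points of Mir143, at 63272 and 85644 CPM, enclose those of Mir126a, Mir322 and Mir208b, and the points of Mir145a overlap those of 8 of its 10 neighbours.

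The third gene named for this family, Mir145b (chromosome 18, 69022199 to 69022273), had 0 counts in both libraries. A count of 0 allows up to 0.693 and 0.781 CPM respectively, taking 3 counts as the limit. All counts of the pair were on 1 strand. Neither gene had a read on the opposite strand in either library, which allows an opposite-strand share of up to 0.00110% for Mir143 and 0.0567% for Mir145a in replicate 1. The same held for 73 of the 78 genes averaging 1000 CPM or more.

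Reads that mapped to several places, 30.6% of all reads in replicate 1 and 30.1% in replicate 2, were not assigned to genes, so a hairpin with a near copy elsewhere can be under-counted. Against 2201 other annotated hairpins, the longest stretch that Mir143 shared was 11 bases. For Mir145a it was 17 bases, shared with Mir145b, and the next longest was 15 bases, shared with Mir6402. Mature miRNAs such as those printed above run from 21 to 23 bases, longer than any of these stretches. Mir143 and Mir145a shared no more than 5 bases with each other.

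The members differed widely in reads, although they are known to be cut from a shared primary transcript. In replicate 1 there were 51.8 reads of Mir143 for each read of Mir145a (95% counting interval 50.4 to 53.2), and in replicate 2 there were 58.9 (57.4 to 60.5). The mean ratio was 55.3 ± 5.05 (SD, n = 2), so Mir145a supplied 1.78% ± 0.160 of the reads of the pair. The intervals did not overlap, and the ratio moved 1.14-fold between libraries. Per base of annotated hairpin the ratio was 61.5 ± 5.61.

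Other neighbouring miRNA genes show where this ratio stands. Genes on the same strand, at most 10000 bases apart and with at least 10 counts in each library, formed 28 runs of exactly 2 genes. The mean ratio of the more to the less abundant gene ranged from 1.05 to 557 with a median of 9.63, and the ratio of Mir143 to Mir145a was the seventh largest. In 5 of the 6 pairs with a larger ratio, the weaker gene shares at least 20 bases with a hairpin at another locus, so that its count is uncertain. They include Mir214 over Mir199a-2 (78.3 ± 8.15) and Mir181a-1 over Mir181b-1 (67.6 ± 1.91). The sixth was Mir130b over Mir301b, a pair of related miRNAs, at 57.4 ± 6.34. Its values of 52.9 and 61.9 enclosed both values of Mir143 over Mir145a. Next below came Mir30d over Mir30b at 47.1 ± 7.58, whose value of 52.5 in replicate 1 lay above that of Mir143 over Mir145a. Mirlet7b over Mirlet7c-2 (38.6 ± 1.01) and Mir100 over Mirlet7a-2 (35.3 ± 13.8) followed.

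Among the 14 pairs in which neither gene shares 20 bases with another locus, Mir143 over Mir145a was the second largest and the median ratio was 7.99. With neighbours joined only up to 5000 bases it was the third largest of 16, behind Mir341 over Mir1188 (56.8 ± 23.3) as well. Neighbours of nearly equal level were also present, such as Mir181c and Mir181d, with a ratio of 1.15 ± 0.0575. The gene transcribed first was the more abundant in 15 of the 28 pairs, Mir143 among them. Of the 28 ratios, 14 moved by more between libraries than that of Mir143 over Mir145a.

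**Figure D3:**
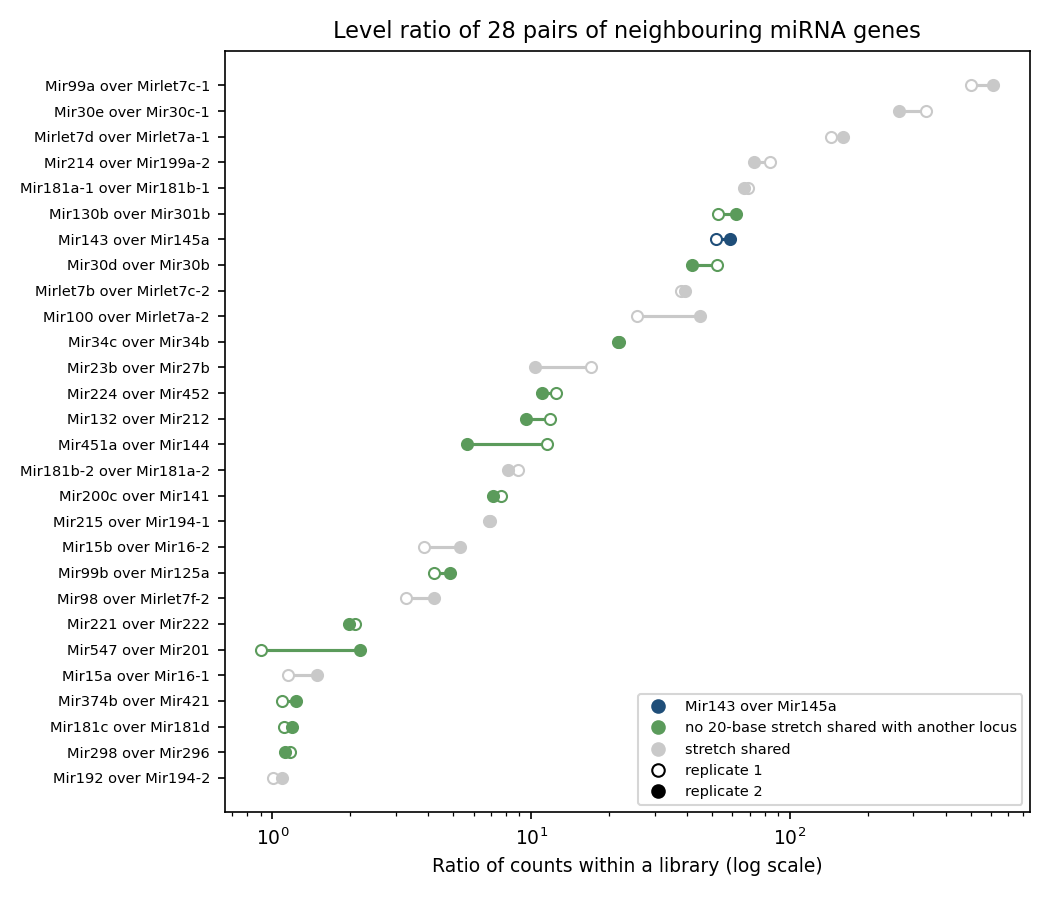
Ratio of the more to the less abundant gene in 28 pairs of neighbouring miRNA genes (log scale), with open circles for replicate 1 and filled circles for replicate 2. Mir143 over Mir145a (blue), at 51.8 and 58.9, overlaps Mir130b over Mir301b and Mir30d over Mir30b, and the pairs above these, in grey, hold a gene that shares at least 20 bases with another locus.

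Both members were higher in replicate 2. The ratio of replicate 2 to replicate 1 was 1.35 for Mir143 (95% counting interval 1.35 to 1.36) and 1.19 for Mir145a (1.15 to 1.24). Both intervals lay above 1, as did those of 45.9% of the 170 genes averaging 100 CPM or more, and 78.2% of these genes had an interval above or below 1. Counting error is therefore small against the difference between libraries for most genes, and the count of 2 of 2 members says little by itself. The spread between hearts cannot be estimated from 2 libraries.

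The Mir143 ratio held a similar place among all 170 genes and among the more abundant 78. It was number 13 from the top of the 170 genes, whose median was 1.04 and whose range was 0.381 to 1.73, and the sixth highest of the 78 genes from 1000 CPM upwards. Above 10000 CPM, a limit chosen after the values were seen, it was the highest of 22 genes, and the other 21 ranged from 0.747 to 1.08. Mir143 also had the widest gap in level of all genes, higher by 22373 CPM in replicate 2, and the next widest was that of Mir335, at -10800 CPM. Mir145a was number 36 of the 170 genes and number 13 of the 78. Scaling by the trimmed mean of M values (TMM) lowered all log2 ratios by 0.07 and median-of-ratios scaling by 0.11, so the ratios are best read against the median gene. Relative to that gene Mir143 was 1.30-fold and Mir145a 1.14-fold higher in replicate 2. Scaling multiplies all genes of a library alike, so these 2 values cannot depend on it.

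**Figure D4:**
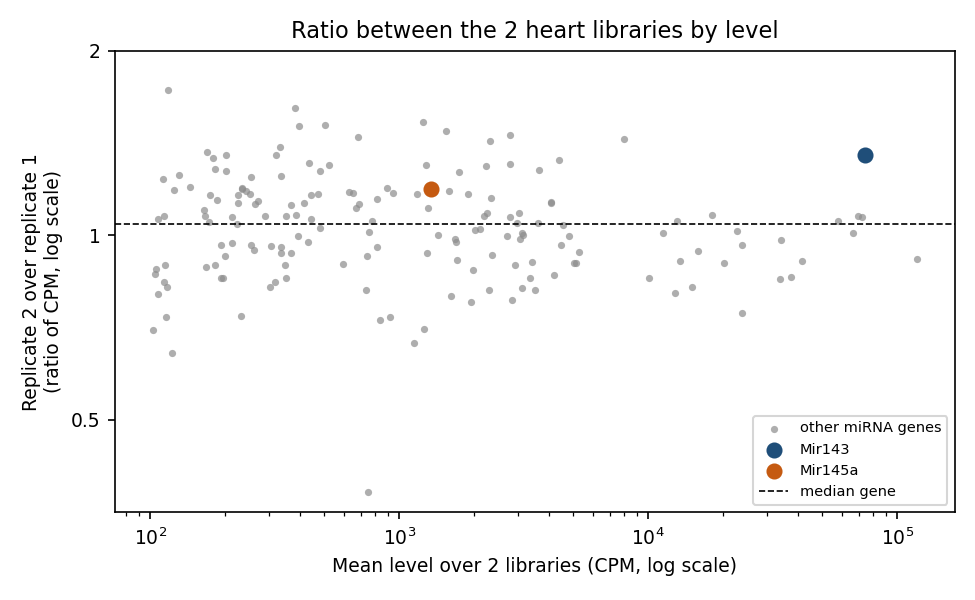
Ratio of CPM in replicate 2 to replicate 1 (log scale) against mean level (CPM, log scale) for the 170 genes averaging 100 CPM or more; each point is a gene and the dashed line marks the median ratio of 1.04. Mir143 (blue) lies at 1.35, above every other gene beyond 10000 CPM, and Mir145a (orange) lies at 1.19 among many genes of like level.

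With 2 libraries a pattern is no more than this 1 ratio, so genes picked for a near ratio are alike by selection. The 5 genes nearest to Mir143 on the log2(CPM + 1) scale were Mir152 (1.35-fold), Mir300 (1.35), Mir323 (1.37), Mir3071 (1.34) and Mir411 (1.33). Their mean levels were far lower, with Mir411 the highest at 3776 CPM in replicate 1 and 5012 in replicate 2. Nearest to Mir145a were Mir665 (1.19-fold), the hypoxia-responsive Mir210 (1.19), Mir370 (1.19), Mir187 (1.19) and Mir203 (1.18). Mir300, Mir323, Mir3071 and Mir411 all lie on chromosome 12, as do Mir665, Mir370 and Mir203, so these genes need not be independent.

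The pair was set beside miRNAs that mark other cells of the heart. All 3 listed miRNAs of heart muscle were detected in both libraries. Together Mir143 and Mir145a gave 64494 CPM in replicate 1, against 87098 in replicate 2. The cardiac muscle list, Mir208a, Mir208b and Mir499, summed to 75752 and 79354 CPM, and the endothelial Mir126a stood at 69932 and 75015. The smooth muscle sum lay below both in replicate 1 and above both in replicate 2, so the 3 lists were not ordered beyond the spread. Mir208a, hosted by the cardiac myosin gene Myh6, was higher in replicate 2 like the pair, at 6542 and 9382 CPM, a ratio of 1.43 beside 1.01 for Mir208b.

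The fibroblast and mesenchymal list (27979 and 27246 CPM) lay below the pair in both libraries. Mir21a, its most abundant member, stood at 24189 and 23309 CPM, so that Mir143 exceeded it 2.62-fold and 3.67-fold. In this list 3 of 5 genes share 20 bases with another locus, so its sum can be too low.

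The epithelial, neuronal and blood cell marker lists also differed between the libraries. All 10 epithelial miRNAs were higher in replicate 2, with sums of 753 and 1339 CPM, and Mir200c had 153 and 456 counts. Over all genes with at least 10 counts in each library, 201 of 337 were higher in replicate 2. Some of the 10 are neighbours, such as Mir200c and Mir141, 336 bases apart, so they are not independent. Of the neuronal list only Mir137 had reads, with 57 counts in replicate 1 and 329 in replicate 2. The other 5 measured genes of that list were at 0, but each shares 20 bases with another locus, so these zeros carry little information. The 2 measured erythroid genes of 4 listed were both lower in replicate 2, with sums of 1184 and 489 CPM led by Mir451a. Of the 3 measured white blood cell genes of 4 listed, 1 was higher in replicate 2, and their sums were 493 and 405 CPM. The epithelial and neuronal sums were higher in replicate 2 like the pair, and the erythroid and white blood cell sums were lower. Any link of these differences to the level of the pair was not tested. The ratio of replicate 2 to replicate 1 was 1.78 for the epithelial sum, 6.50 for the neuronal, 0.413 for the erythroid and 0.822 for the white blood cell sum, beside 1.35 for Mir143.

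**Figure D5:**
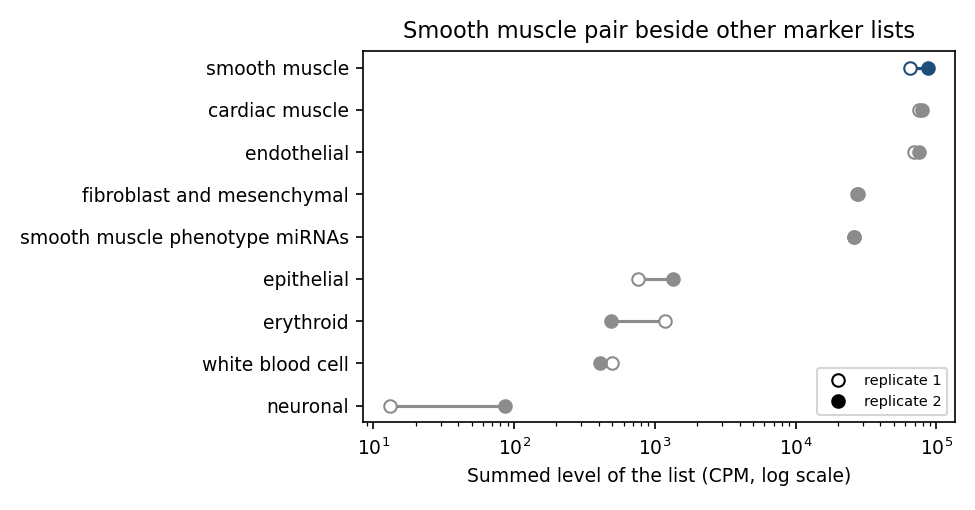
Summed level of each marker list (CPM, log scale), open circles for replicate 1 and filled circles for replicate 2. The smooth muscle pair (blue), at 64494 and 87098 CPM, overlaps the cardiac muscle and endothelial lists. The counted sums of the epithelial, erythroid, white blood cell and neuronal lists lie far below it, the highest being 1339 CPM. The neuronal sum is that of Mir137 alone, and the erythroid and white blood cell sums lack listed genes that were not measured.

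Further miRNAs known to act in smooth muscle, through its growth, matrix or contractile state, were mostly counted far below Mir143. The counts of 9 of the 16 measured genes can be too low, as these genes share 20 bases with another locus. Of 19 listed genes 16 were measured and 13 had at least 10 counts in each library. Among these 13, 9 were higher in replicate 2, with a median log2 ratio of 0.19, beside 201 of 337 and a median of 0.08 over all genes with that many counts. Mir21a held nearly all of the list's 26143 and 25935 CPM. Mir10a, of a Hox cluster, was close to Mir145a, at 982 and 1503 CPM. Mir29a, which targets collagen messages, reached 226 and 281 CPM, Mir31 reached 174 and 199, and Mir204 reached 71.9 and 84.1.

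Mir221 and Mir222, which promote growth of vascular smooth muscle cells, were low. Mir221 stood at 69.1 and 66.9 CPM and Mir222 at 33.3 and 33.9, so Mir143 exceeded Mir221 by 916-fold and 1280-fold. Mir133a-1 and Mir1a-1, shared by striated and smooth muscle, had few reads: Mir133a-1 was counted 12 times in either library and Mir1a-1 was counted 13 and 10 times. Both share 20 bases with another locus, as do 9 of the 16 measured genes of this list, so these counts can be far too low and give no level to set against the pair.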

How the data were processed

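Small RNA libraries of embryonic heart (2, of 1 group) were analysed from whole-number read counts per miRNA gene deposited by the authors, 1 table per library. Build mm10 and GENCODE M4 underlie the counts, per the deposited notes. For the aligner and counter, nothing is stated in the sources used here. The strand column with the larger total (column 3) was used. It held 4327424 reads in replicate 1 and 3839984 in replicate 2, or 53.1% and 52.8% of all reads. Summary lines (unmapped, ambiguous and the like) were dropped.

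GENCODE M21 named 1894 of 1973 identifiers. Version numbers differed for 79 of them, both members included, so hairpin ends can differ from those counted. Counts were scaled to the column total (CPM). Poisson and Clopper-Pearson intervals (95%) cover counting error only, as PCR copies were not told apart. The ratio interval was checked on simulated counts of 200 genes per fold size. Hairpins were compared on either strand, leaving out loci that overlap. No test was made between groups, since there is 1.

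Named were the members, Mir145b, the 5 genes each way in mean CPM, the 5 nearest in replicate ratio (at least 100 CPM), marker lists, and pairs next to the member ratio. Members and lists were chosen with earlier results of these data known, and Mir208a, Mir200c, Mir341 over Mir1188, Mir181c and Mir181d, and members of the smooth muscle phenotype list beyond Mir21a were named after their values were seen. Alternatives were both strands together, edgeR 4.0.16 (TMM) and DESeq2 1.42.0 (median of ratios) scaling, other denominators, thinning, other joining distances and each replicate left out. Python 3.11.15, scipy 1.17.1 and R 4.3.3 were used.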

Additional observations from a re-analysis of the deposited data

How the results depend on the processing

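Over 12 values, 41 of 54 alternatives left a value within its replicate SD, its counting interval or 1.5 times its rank, and 13 moved it. Some of the 41 were fixed in advance. With 2 libraries, a mean or ratio with 1 left out always stays within the SD. The pair had no opposite-strand read, so counting both strands could not change its ratio. The count of 41 is therefore no measure of stability. No direction reversed. With all reads as denominator the levels were 39417 CPM for Mir143 and 708 for Mir145a, and without Mir335 in the total Mir145a stood at 1519 CPM. The ratio of replicate 2 to replicate 1 for Mir143 was 1.29 with TMM, 1.25 with median-of-ratios scaling, 1.34 with Mir335 left out of the total, 1.39 with the members left out and 1.347 with all reads as denominator. For Mir145a it was 1.14 with TMM and 1.10 with median-of-ratios scaling. Mir143 over Mir145a was 61.5 per annotated hairpin base. Without replicate 2, Mir143 ranked 5 rather than 2, and in pairs without a shared stretch the ratio of the members was number 2 rather than 7. With 2 libraries, leaving out 1 gives a single value: 63272 or 85644 CPM for Mir143, 1222 or 1454 for Mir145a and 51.8 or 58.9 for their ratio. The counting intervals of both members were narrower than the gap between libraries, so the number of libraries, more than depth, limits precision.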
